A study of Homo sapiens with 18 samples.

Results

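The genes described are the nuclear-encoded genes of the respiratory chain and ATP synthase, measured in K562 cells. Members were rows of the RNA count table whose symbol starts with NDUFA, NDUFB, NDUFC, NDUFS, NDUFV, UQCR, ATP5 or COX4 to COX8, or is SDHA, SDHB, SDHC or SDHD. Of 215 such rows, 120 pseudogene or antisense rows were left out, which left 95 members among 55766 rows. By complex, 37 belong to complex I, 7 are complex I assembly factors (NDUFAF genes), 4 belong to complex II, 8 to complex III, 19 to complex IV and 15 to complex V. The other 5 are ATP5S and ATP5SL, which share the name but are not subunits, the paralogue ATP5L2, and the read-through entries NDUFC2-KCTD14 and ATP5J2-PTCD1. NDUFA4, NDUFA4L2 and COX7A2L were placed with complex IV. Of the 95 members, 86 had enough counts to be tested among 13786 genes, and these 86 are meant wherever fold changes are given.

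K562 is an established human leukaemia line with erythroid features, and every library came from K562 cells that carried a B2M:tdTomato transgene, a red fluorescent reporter at the gene of beta-2 microglobulin. The 3 groups were untreated cells, cells silenced with TALE proteins and cells silenced with dCas9, with 3 RNA-seq and 3 MeDIP-seq libraries in each. Both tools can be programmed to bind a chosen DNA site, TALE through its repeats and dCas9, a Cas9 that cannot cut, through a guide RNA. Per the labels, treated cells received a mixture of 3 plasmids that each code for a different repressor, called ATR there and aimed at DNA methylation of the B2M promoter, and dCas9 treatment added a guide RNA plasmid. The labels do not state whether the replicates were separate treatments, how long after treatment cells were collected or whether a group was 1 clone. The p-values therefore measure the spread between these libraries, which may be technical.

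As background, the respiratory chain passes electrons from NADH (complex I) and succinate (complex II) through ubiquinone to complex III, cytochrome c and complex IV, and complexes I, III and IV pump protons that drive ATP synthase, complex V. Complexes I, III, IV and V combine subunits from nuclear genes with subunits from the mitochondrial genome, whereas complex II is nuclear only. Nuclear factors such as NRF1, the ETS-family factor GABP and YY1 are known to act at many promoters of these genes.

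The promoter sequences of 5 members are shown because they hold a motif of one of these factors within 100 bases upstream of the annotated start and stand for 4 complexes. They are RefSeq sequences of build GRCh38.p14, 5′ to 3′ on the strand of the gene, with motif letters in capitals. UQCRH codes for the hinge protein of complex III (chr1:46303598-46303697, plus strand). SDHA codes for the flavoprotein of complex II (chr5:218220-218319, plus strand), UQCRFS1 for the Rieske iron-sulfur protein of complex III (chr19:29213152-29213251, minus strand), COX6B1 for a complex IV subunit (chr19:35648223-35648322, plus strand) and ATP5J for coupling factor 6 of ATP synthase (chr21:25735055-25735154, minus strand).
UQCRH: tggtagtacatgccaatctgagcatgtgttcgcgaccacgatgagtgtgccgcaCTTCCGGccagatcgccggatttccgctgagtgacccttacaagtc
SDHA: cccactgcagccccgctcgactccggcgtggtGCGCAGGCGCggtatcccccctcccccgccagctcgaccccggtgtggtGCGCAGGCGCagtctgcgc
UQCRFS1: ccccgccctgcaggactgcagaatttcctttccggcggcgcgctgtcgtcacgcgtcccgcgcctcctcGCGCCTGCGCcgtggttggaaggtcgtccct
COX6B1: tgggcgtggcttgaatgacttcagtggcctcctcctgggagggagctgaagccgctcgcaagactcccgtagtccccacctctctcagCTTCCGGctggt
ATP5J: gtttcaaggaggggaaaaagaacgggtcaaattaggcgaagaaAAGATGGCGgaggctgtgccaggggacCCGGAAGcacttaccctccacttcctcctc
Capitals in SDHA and UQCRFS1 mark the NRF1 core, searched as GCGCA and GCGC separated by any 1 base. Capitals in UQCRH and COX6B1 mark the ETS motif CCGGAAG, and ATP5J holds the YY1 motif AAGATGGCG followed by the ETS motif. Both strands were searched, so a match on the other strand stands as its reverse complement, as in UQCRH, UQCRFS1 and COX6B1. A window was counted once however many matches it held, and matches of different motifs were allowed to overlap.

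In windows from 250 bases before to 50 bases after the start, 38 of the 75 members with a RefSeq window held at least 1 of the 3 motifs (50.7%), against 16.96% of 27305 windows of all genes. The windows of all genes were not filtered for protein-coding genes, so they are a broader set than the members. The NRF1 core was in 17 member windows (22.7%, against 6.28%), the ETS motif in 20 (26.7%, against 10.67%) and the YY1 motif in 8 (10.7%, against 1.85%). By complex, the NRF1 core was in 6 of 32 windows of complex I subunits, 2 of 3 of complex II and 4 of 7 of complex III. It was in 1 of 14 windows of complex IV and 3 of 11 of complex V. The ETS motif was in 5, 2, 3, 5 and 4 of the windows of complexes I to V in that order. These are letter matches, described without a test, and they do not show binding.

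RNA libraries held 8460076 to 12050554 counts, 1.29% to 1.72% of them in the 95 members. The target of the treatment set the groups apart: B2M_tomato had 359 to 393 CPM (counts scaled to library size with TMM factors) in untreated libraries, 12.5 to 18.2 in TALE libraries and 13.9 to 19 in dCas9 libraries. All 11 K562 markers, globin and erythroid genes, were detected, with summed CPM of 8723 to 9355 in untreated, 6978 to 10936 in TALE and 7098 to 10458 in dCas9 libraries. Among 16 markers of other blood, stromal and epithelial cells, 0 were at zero counts in all 9 libraries, 5 reached the level for testing, and 0 of these were called in any contrast. Their summed CPM was 152 to 166 in untreated, 145 to 179 in TALE and 136 to 179 in dCas9 libraries, mostly from EPCAM. TALE replicate 3 stood apart from TALE replicates 1 and 2 in the members, as described below, and the counts and medians of the TALE contrasts are given without it too.

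Levels were compared between genes as RPKM, CPM divided by the median length of the gene's coding transcripts, and are given as mean ± SD over all 9 libraries. The order depends on which transcript length is used: with the canonical transcript COX7B moved from 342 to 90.4 RPKM and UQCRB from 713 to 54.4. Complex III and complex V held the highest members. UQCRH reached 1588 ± 303 and UQCRB, a complex III subunit near the ubiquinone site, 713 ± 155, while the core protein UQCRC1 was at 59.8 ± 7.38 and the Rieske protein UQCRFS1 at 29.4 ± 4.39. In ATP synthase, the membrane subunit f gene ATP5J2 was at 1516 ± 319 and ATP5J at 776 ± 120. ATP5G2 at 138 ± 22 and ATP5E, the epsilon subunit, at 104 ± 16.6 were the lowest of that complex. All 3 genes that code for the c subunit of the rotor ring were expressed, ATP5G1 at 316 ± 51.8, ATP5G3 at 193 ± 23.9 and ATP5G2 at 138 ± 22 RPKM, and they code for the same mature protein.

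**Figure D1:**
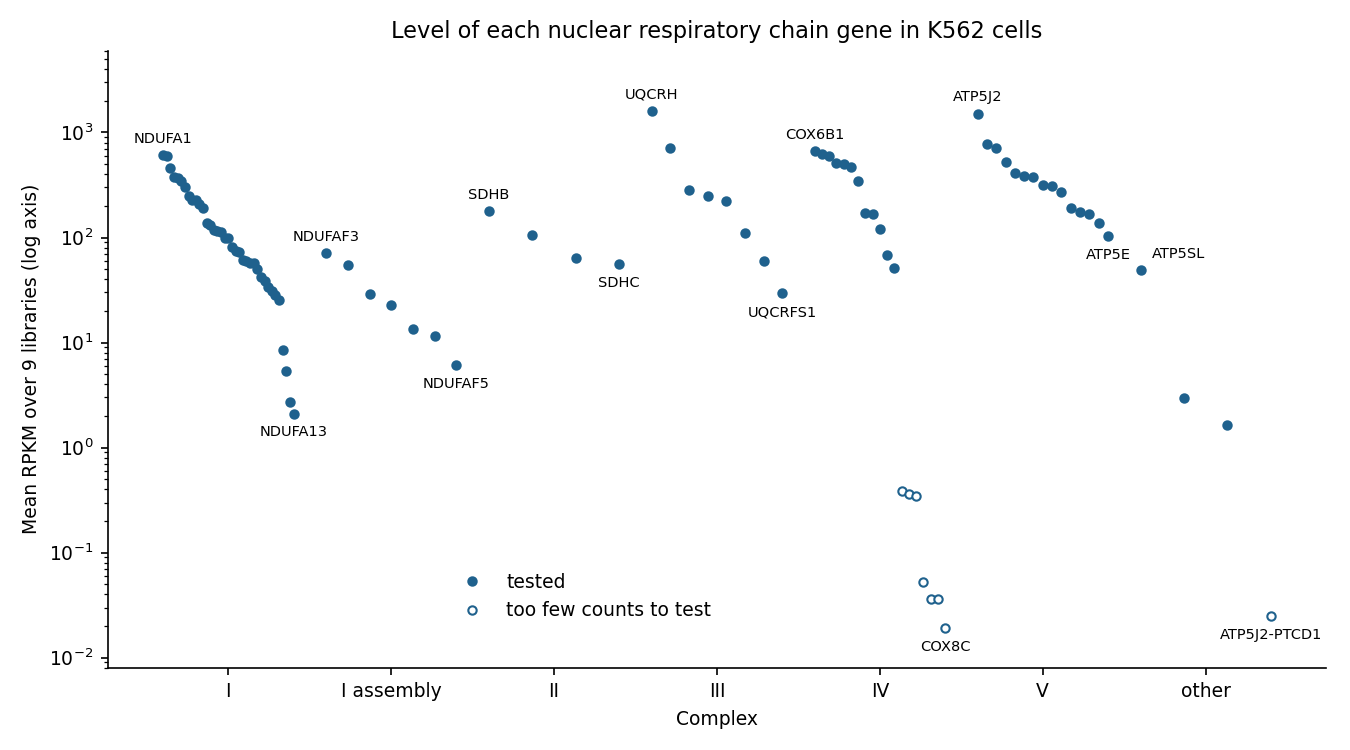
Mean RPKM of each member over 9 libraries on a log axis, by complex, in falling order from left to right within a complex. Filled points are the 86 tested members, open points had too few counts, NDUFC2-KCTD14 had 0 counts and is not drawn, and the highest and lowest drawn member of each complex are named; UQCRH at 1588 and ATP5J2 at 1516 are the highest, and 7 complex IV genes lie below 1 RPKM.

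Complex I spanned the widest range of the tested subunits as a ratio of highest to lowest RPKM. NDUFA1 was at 607 ± 141 and NDUFB9 at 591 ± 115 RPKM, both accessory subunits of the membrane arm. At the other end were NDUFV2, an iron-sulfur subunit of the NADH module, at 5.31 ± 1.67, NDUFA9 at 2.73 ± 0.352 and NDUFA13 (also known as GRIM-19) at 2.11 ± 1.54. These low values are uncertain as levels. NDUFA13 shares 82.4% of its 50-base words with an overlapping gene model and NDUFV2 shares 89.4% with another, and the pseudogene row NDUFV2P1 held 3728 counts against 416 for NDUFV2. How the authors assigned reads that match several rows is not given in the sources used here. The same holds for COX6A1, with 3340 counts beside 4479 in the pseudogene row COX6A1P2. Such sharing was not limited to low members. UQCRH shares 33.4% of its 50-base words with UQCRHL, and ATP5O 61.2% with an overlapping gene model, so their levels are uncertain too. Of the assembly factors, NDUFAF3 was highest at 71.0 ± 11 and NDUFAF2 next at 54.4 ± 6.78, while NDUFAF7 at 11.6 ± 1.59 and NDUFAF5 at 6.16 ± 0.920 were lowest.

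Complex II, succinate dehydrogenase, was expressed in all 4 subunits. The iron-sulfur subunit SDHB was at 177 ± 19.3 RPKM and the membrane anchor SDHD at 105 ± 16.3, above the flavoprotein SDHA at 63.3 ± 4.93 and the anchor SDHC at 55.5 ± 6.39. SDHA and SDHC lay closer together than the sum of their SDs, while SDHB and SDHD did not. SDHA shares 73.6% of its 50-base words with other entries, mainly an overlapping gene model, so its level is uncertain too.

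Complex IV was split between genes with high and with almost no RNA, along the lines of its paralogue pairs. COX4I1 was at 467 ± 65.2 RPKM, while COX4I2, a paralogue known from lung, had 3 counts in all 9 libraries together. COX6A1 was at 68.2 ± 11.9 and the heart and muscle form COX6A2 had 1 count. COX7A2 was at 503 ± 119 and the supercomplex factor COX7A2L at 51.5 ± 6.42, while the heart and muscle form COX7A1 had 1 count. COX6B1 was the highest complex IV gene at 660 ± 71.5, followed by COX5B at 621 ± 108, and the paralogue COX6B2, known from testis, had 54 counts. COX7B was at 342 ± 99.2 and COX7B2 had 18 counts, COX8A was at 172 ± 17.3 and COX8C had 1 count, and NDUFA4 was at 167 ± 42.4 and NDUFA4L2 had 32 counts. The 7 paralogues with few counts made up most of the 9 members that could not be tested, with both read-through entries. At a depth of up to 12050554 counts a library, a treatment effect on them was not detectable.

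The members moved together from library to library, and libraries of 1 treated group differed more than the group means did. The median over the 86 members of log2(CPM + 0.5) minus the gene's own mean was -0.01, 0.07 and 0.05 in untreated replicates 1, 2 and 3. It was -0.24, -0.17 and 0.24 in the TALE replicates and 0.17, 0.03 and -0.15 in the dCas9 replicates. The median over all tested genes lay between 0.00 and 0.01 in every library. In some other lists too, TALE replicate 3 was the highest TALE library and dCas9 replicate 3 the lowest dCas9 library. For the K562 markers, summed CPM in TALE replicates 1, 2 and 3 was 6978, 7700 and 10936, and in the dCas9 replicates 10458, 9134 and 7098. The assembly factors outside the rule summed to 1697, 1660 and 1974 in TALE and 1911, 1753 and 1573 in dCas9 libraries. This order did not hold in every list. The regulator genes described below were highest in replicate 1 of the TALE libraries, at 893, 804 and 823. Subunits of the mitochondrial genome were lowest in replicate 1 of the dCas9 libraries, at 58583, 142914 and 103029. The cause was not tested. The group means of 0.04, -0.05 and 0.02 therefore differed by less than the spread inside the TALE group (SD 0.259) or the dCas9 group (SD 0.158). TALE replicate 3 held the highest of the 9 values for 42 of 86 members, TALE replicate 1 the lowest for 34, and TALE replicate 3 was the highest TALE library for 81.

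**Figure D2:**
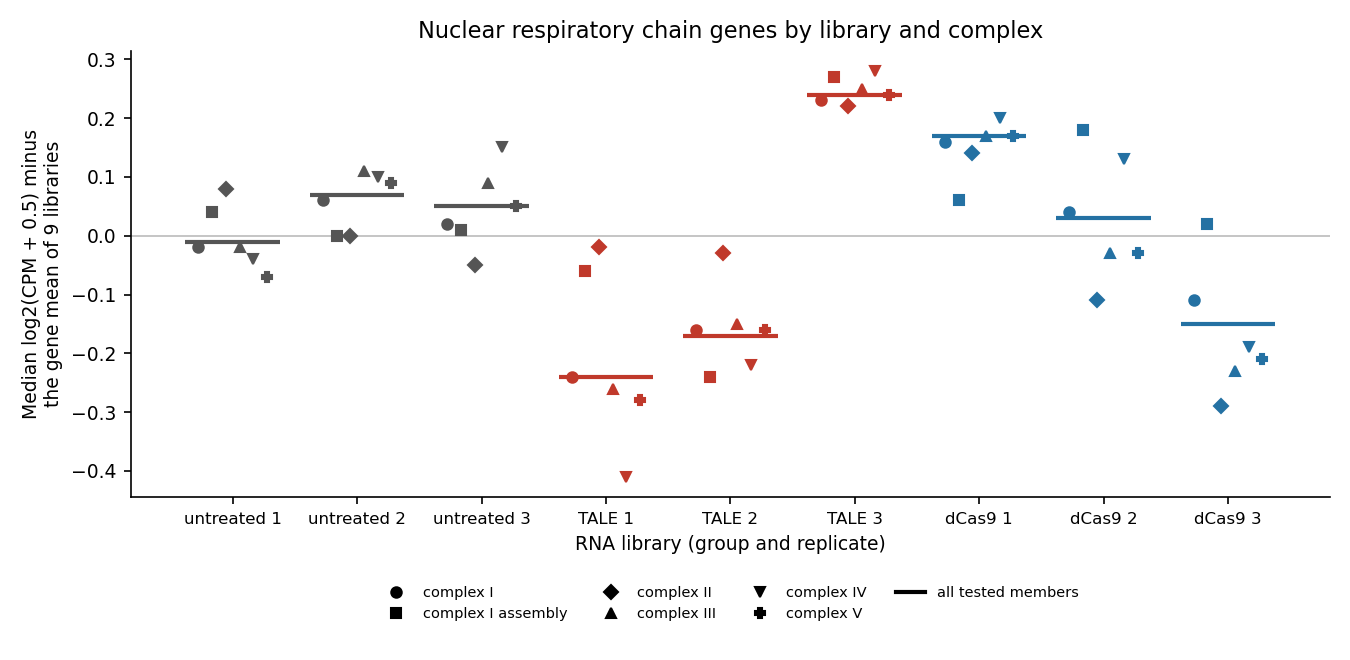
Median deviation of tested members from their own mean over 9 libraries, in log2(CPM + 0.5), for each RNA library (x axis) and complex (symbols), with a bar for all 86 members. TALE replicates 1 and 2 lie at -0.24 and -0.17 and TALE replicate 3 at 0.24, a wider spread than between the group means.

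Complex IV spread most across the TALE libraries, with medians of -0.41, -0.22 and 0.28 in replicates 1, 2 and 3. Complex II spread least in TALE replicates 1 and 2, with medians of -0.02 and -0.03, and reached 0.22 in replicate 3. Complex I, complex III and complex V lay between, at -0.24, -0.26 and -0.28 in TALE replicate 1 and 0.23, 0.25 and 0.24 in TALE replicate 3.

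In TALE replicates 1 and 2 short genes moved further than long ones, and the gap was smaller in TALE replicate 3. Over the 29 members with a coding length of up to 327 bases the median deviation was -0.36, -0.26 and 0.29 in the TALE replicates, and over the 29 members of 516 bases or more it was -0.07, -0.10 and 0.22. Of the 12 tested complex IV genes 8 were among the short members, while 0 of the 4 complex II genes were. Across members, Spearman's rho between coding length and deviation was 0.48, 0.42 and -0.39 in the TALE replicates, 0.47, -0.41 and -0.41 in the untreated ones and -0.41, -0.39 and 0.18 in the dCas9 ones. Across 10847 genes with a length and a GC content, rho was 0.33, 0.22 and -0.46 in the TALE replicates. It was -0.01, -0.03 and -0.05 in the untreated ones and -0.38, 0.08 and 0.16 in the dCas9 ones. The trend of the members in the untreated libraries and in dCas9 replicate 2 was thus not seen across all genes. These correlations are across genes of 1 library, which share its depth and preparation, and are descriptions. Per the labels' protocols, libraries were made with an Ovation Human FFPE kit. The part that RNA quality or amplification has in the pattern was not tested.

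In the comparison of TALE-silenced with untreated cells, no member was called at an adjusted p under 0.05, among 0.0218% of all tested genes called. At an unadjusted p under 0.05 edgeR's quasi-likelihood test gave 5 of 86 members (7.15% of all genes). The median log2 fold change of members was -0.07, with 56 lower and 30 higher, and it was -0.18 in complex IV, -0.10 in complexes III and V, -0.04 in complex I, -0.01 in the assembly factors and 0.04 in complex II.

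COX7B, a small membrane subunit of complex IV, had 187, 315 and 293 CPM in untreated libraries and 130, 146 and 252 in TALE libraries. TALE replicate 3 lay inside the untreated range and the other TALE libraries below it. The log2 fold change was -0.59 (SE 0.221, adjusted p = 0.585 by edgeR, and 0.0415 to 1.00 over the alternatives tried). ATP5O, the stalk protein OSCP of ATP synthase, had 503, 667 and 687 CPM untreated against 353, 408 and 623 with TALE, and NDUFB5, a membrane-arm subunit of complex I, 76.4, 83.4 and 82.3 against 51.2, 57.4 and 83.2. In both genes TALE replicates 1 and 2 were below every untreated library and replicate 3 was not. The fold changes were -0.43 (adjusted p = 0.690) and -0.34 (adjusted p = 0.694).

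NDUFV1, the subunit of complex I that binds NADH, differed without overlap between the groups. It had 75.0, 66.9 and 69.8 CPM in untreated libraries and 80.7, 86.9 and 85.1 in TALE libraries, a log2 fold change of 0.26 (SE 0.114, adjusted p = 0.669). An exact two-sided permutation test gave p = 0.1, the smallest that 3 libraries against 3 allow. The share of members or of all genes that separated in this way is not given here. The lack of overlap is therefore a description only. NDUFA13 had the lowest fold change of all members, -1.17 with an SE of 0.626, on 17, 22 and 2 counts untreated and 6, 6 and 10 with TALE, and its groups overlapped.

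NDUFAF3, an assembly factor of complex I, was the member with the smallest p against untreated cells in the dCas9 group. It had 45.6, 53.5 and 43.8 CPM in untreated libraries, 55.4, 70.4 and 62.6 with dCas9 and 59.6, 51.0 and 63.3 with TALE. All dCas9 libraries lay above all untreated ones, and 1 TALE library lay inside the untreated range. For dCas9 the exact permutation test gave p = 0.1, again the smallest that 3 libraries against 3 allow. The log2 fold change was 0.40 for dCas9 (SE 0.127, adjusted p = 0.530) and 0.28 for TALE (SE 0.127, adjusted p = 0.677), and both contrasts use the same untreated libraries. For the mean of both silenced groups it was 0.34 (SE 0.112, adjusted p = 0.509), with 6 of 6 silenced libraries above the untreated mean and an exact permutation p of 0.0357, unadjusted. NDUFAF3 was the 1 member of 86 at an unadjusted p under 0.05 for dCas9 against untreated (5.93% of all genes), and 0 members were called (0.0290% of all genes). The members' median log2 fold change in that contrast was 0.01, with 45 higher and 41 lower, and by complex it ran from -0.09 in complex II to 0.07 in the assembly factors.

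For both silenced groups against untreated cells, 3 members had an unadjusted p under 0.05 (6.35% of all genes), NDUFAF3, COX7B at -0.42 and NDUFB5 at -0.28, and 0 were called (0.0363% of all genes). The members' median was -0.03.

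**Figure D3:**
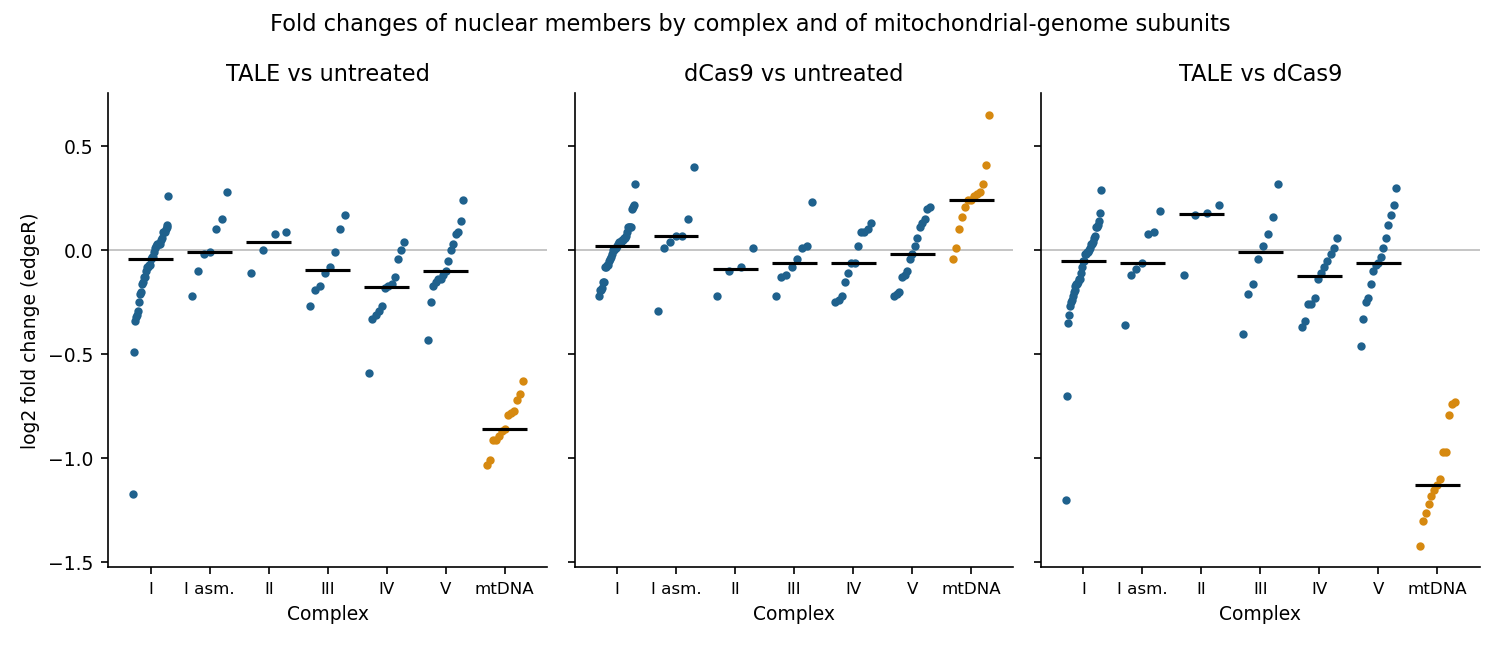
edgeR log2 fold change of the 83 tested members of a complex or its assembly factors (blue; ATP5S, ATP5SL and ATP5L2 are not drawn) and of the 13 subunits of the mitochondrial genome (orange, mtDNA) in 3 contrasts, with bars for medians. Nuclear complexes have medians between -0.18 and 0.18, while the mitochondrial-genome subunits have medians of -0.86, 0.24 and -1.13; 0 were called at an adjusted p under 0.05 with the filter on low counts, whereas without it COX7B and all 13 mitochondrial subunits were called for TALE against untreated, all 13 against dCas9, and 1 for dCas9 against untreated.

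TALE against dCas9, which share no library, gave 7 members at an unadjusted p under 0.05 (6.38% of all genes) and 0 called (0% of all genes). ATP5J2 had 320, 363 and 554 CPM with TALE and 541, 655 and 501 with dCas9 (log2 fold change -0.46, SE 0.179, adjusted p = 0.745), and ATP5J 372, 351 and 506 against 481, 564 and 501 (-0.33, adjusted p = 0.761). UQCRB had 385, 327 and 492 against 510, 665 and 412 (-0.40, adjusted p = 0.761). NDUFV2, which shares most of its sequence with another model, had 2.65, 3.16 and 4.45 against 3.61, 7.04 and 6.05 (-0.70, adjusted p = 0.745), and the assembly factor NDUFAF5 had 15.3, 15.4 and 21.1 against 20.5, 22.4 and 23.7 (-0.36, adjusted p = 0.745). The other two members were higher with TALE: UQCRFS1 had 92.4, 98.0 and 107 against 100, 74.8 and 64.2 (0.32), and NDUFA8, an intermembrane-space subunit of complex I, 47.5, 49.1 and 60.0 against 50, 41.5 and 36.2 (0.29). The groups overlapped for all 7 members. Complex II had positive values in SDHA, SDHB and SDHD and a negative one in SDHC, and the median of that complex was 0.18, or 0.08 without TALE replicate 3. The median over all members was -0.06, and it was 0.03 without TALE replicate 1, 0.01 without TALE replicate 2 and 0.01 without dCas9 replicate 1.

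The contrast of TALE with untreated depended on which TALE library was left out. Without TALE replicate 1 the members' median log2 fold change was 0.02, with 41 of 86 lower, and without TALE replicate 2 it was -0.02, with 48 lower. In both cases 0 members were lower and 1 was higher at an unadjusted p under 0.05 by edgeR, and 0 were called. Leaving out TALE replicate 3 moved the values the other way. At an unadjusted p under 0.05, 36 of 86 members then passed, all lower in TALE, beside 14.4% of all genes, and the median log2 fold change was -0.24. Still 0 members were called, with COX7B nearest at a log2 fold change of -0.94 (SE 0.185, adjusted p = 0.0512). By complex the medians were then -0.42 in complex IV, -0.30 in complex V, -0.28 in complex III, -0.22 in complex I, -0.12 in the assembly factors and -0.07 in complex II, so the last turned from 0.04. Of the 36 members, complex IV held 10 from 12 tested genes, complex V 8 of 15, complex I 14 of 37, complex III 3 of 8, the assembly factors 1 of 7 and complex II 0 of 4. Differences between complexes were not tested, and short genes were unevenly spread over them, as given above. After COX7B the smallest p-values were those of NDUFB5 (-0.57), ATP5O (-0.70), COX7A2 (-0.68) and NDUFA4 (-0.67). Against dCas9, 33 members passed in the same way, all lower in TALE, beside 12.7% of all genes, with a median of -0.24. TALE replicate 3 was left out because of these same values, so the counts without it describe how far 1 library decides them.

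The subunits that the mitochondrial genome codes for differed more between groups than the nuclear members did. By edgeR, all 13 had an unadjusted p under 0.05 when TALE was compared with untreated or with dCas9, beside 7.15% and 6.38% of all genes. All were lower in TALE, with medians of -0.86 and -1.13. The 13 were read in the same libraries, so they are not 13 independent results. At an adjusted p under 0.05, 0 were called by edgeR (lowest adjusted p of 0.545 and 0.511). This call depended on the filter: without a filter on low counts edgeR called all 13 in both contrasts (lowest adjusted p of 6.42e-06 and 5.82e-17). More genes of the whole table were called that way too, as given in the last section. DESeq2, run with the filter, called 0 in both contrasts (lowest adjusted p of 0.0618 and 0.206). Without dCas9 replicate 1 edgeR called 6 against dCas9 (lowest adjusted p of 0.00493). For dCas9 against untreated the median was 0.24, with 1 of 13 lower and 0 called, or 1 called, higher, without a filter. That median turned to -0.15, with 10 of 13 lower, without dCas9 replicate 2 and was 0.05 without untreated replicate 1. Their summed CPM was 66132, 101039 and 99702 in untreated libraries, 53440, 35386 and 59782 with TALE and 58583, 142914 and 103029 with dCas9. The TALE libraries lay below every untreated library, while 1 dCas9 library lay inside the TALE range. The 83 nuclear subunit genes of complexes I to V summed to 14009, 15426 and 15245 CPM untreated, 11866, 12565 and 17104 with TALE and 16350, 15340 and 13051 with dCas9, and these groups overlapped.

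The ratio of mitochondrial to nuclear subunit counts was accordingly 5.94 ± 1.05 (SD, n = 3) in untreated, 3.61 ± 0.849 in TALE and 6.93 ± 2.99 in dCas9 libraries. Single values were 4.72, 6.55 and 6.54 in untreated, 4.50, 2.82 and 3.50 in TALE and 3.58, 9.32 and 7.89 in dCas9 libraries. The mean ratio was lowest in TALE libraries in each complex with mitochondrial subunits. It was 9.36, 5.20 and 11.3 in untreated, TALE and dCas9 for complex I, 1.82, 1.11 and 1.96 for complex III, 11.4, 7.94 and 12.4 for complex IV and 2.31, 1.36 and 2.89 for complex V. Untreated replicate 1 lay close to TALE replicate 1 throughout, at 4.72 against 4.50 over all complexes, 6.87 against 6.65 in complex I, 1.47 against 1.42 in complex III, 10.3 against 9.76 in complex IV and 1.76 against 1.80 in complex V. TALE replicate 3, high in nuclear members, was also the highest TALE library in mitochondrial subunits. The dCas9 group went the other way: replicate 1 was its highest library in nuclear subunits (16350 CPM) and its lowest in mitochondrial ones (58583 CPM). For TALE against untreated, the lowest log2 fold changes were those of the complex I subunits MT-ND5 (-1.03) and MT-ND4 (-1.01). Without TALE replicate 2, 5 of the 13 kept an unadjusted p under 0.05 against untreated, with a median of -0.64, and without any other single library 9 to 13 did.

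**Figure D4:**
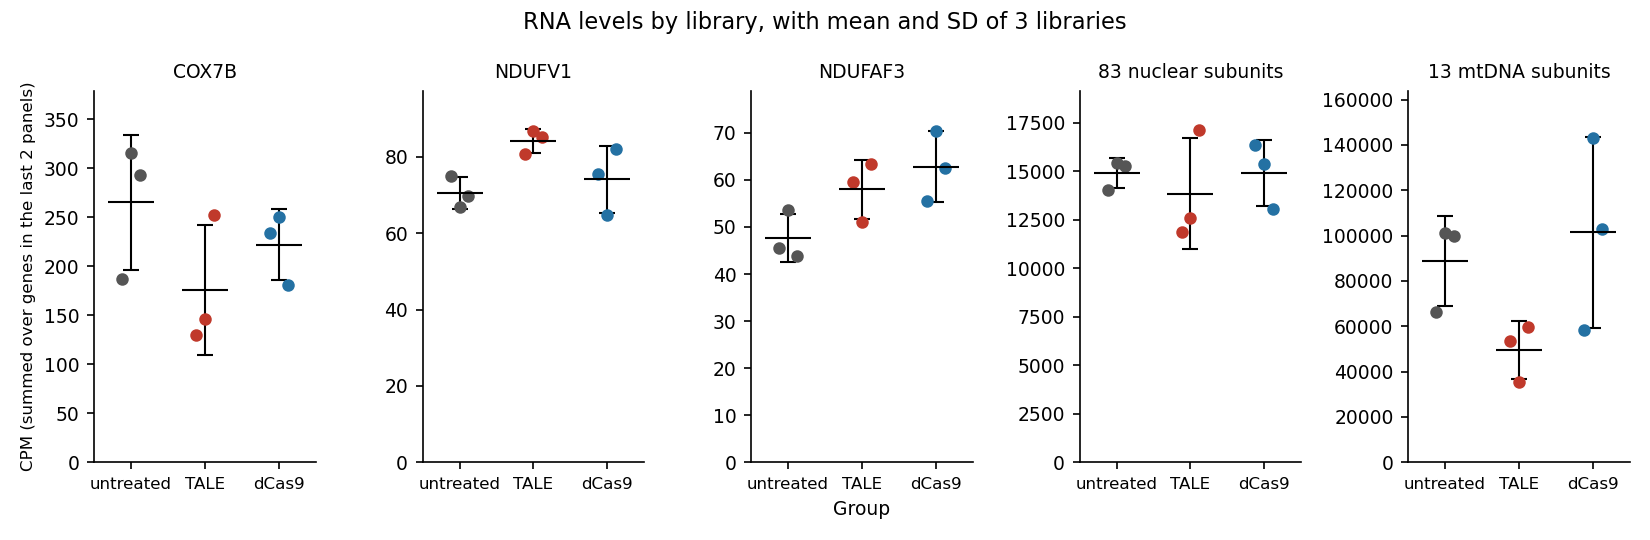
CPM in each library (points) with mean and SD of 3 libraries (bars) for COX7B, NDUFV1 and NDUFAF3, and summed over 83 nuclear and 13 mitochondrial-genome subunit genes. NDUFV1 does not overlap between untreated and TALE, and NDUFAF3 does not overlap between untreated and dCas9. An exact permutation test gave p = 0.1 for each, the smallest that 3 libraries against 3 allow. The mitochondrial sum of TALE libraries (35386 to 59782) lies below that of the untreated ones (66132 to 101039).

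Other genes of the pathway were counted in the same contrasts. Of 36 assembly factors outside the rule, 0 were called in any contrast, 1 had an unadjusted p under 0.05 for TALE (higher) and 3 for dCas9 (1 higher, 2 lower), and their medians were -0.03 and -0.04. Of 12 regulators, 11 were tested, and 0 had an unadjusted p under 0.05 in any contrast. NRF1 was at 18.2 ± 2.24, 19.4 ± 2.28 and 18.2 ± 0.776 CPM (SD, n = 3) in untreated, TALE and dCas9 libraries, the mitochondrial transcription factor TFAM at 248 ± 14.5, 256 ± 21.6 and 251 ± 23.7, and the mitochondrial RNA polymerase gene POLRMT at 37 ± 4.10, 37.4 ± 5.05 and 34.6 ± 4.18. PPARGC1A, a coactivator of mitochondrial biogenesis, was below 1 CPM in every group. Of 5 further subunit and carrier genes that the rule leaves out, CYC1, the cytochrome c1 of complex III, had the only unadjusted p under 0.05, for TALE against dCas9 (159 ± 19.4 against 125 ± 32.5 CPM, adjusted p = 0.759).

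MeDIP-seq sequences DNA captured with an antibody against methylated cytosine, and the deposited table counts reads in 198884 regions of build hg19. Of the 94 members with an annotated start, 61 had a counted region within 2 kb of it (64.9%), against 42.9% of 19894 protein-coding starts. Over the start itself 0 members had one, and the share of all protein-coding starts with such a region is not given here. In the authors' peak lists of single samples, 53.2% to 60.6% of members had a peak within 2 kb, against 28.5% to 37.9% of protein-coding starts, and 1.06% to 3.19% had a peak over the start, against 1.5% to 2.53%. The 3 members with a peak over the start in any sample were COX7A1, in 8 of 9 samples of all 3 groups, ATP5L2 in 5 and COX7A2 in 1. COX7A1 was one of the paralogues with almost no RNA. Among the paralogues with few counts, COX7A1 and COX4I2 had a peak within 2 kb in 9 of 9 samples, COX6A2 in 3 and COX8C in 2. COX7B2, COX6B2 and NDUFA4L2 had 0. Expressed complex IV genes were mixed too, with 9 of 9 samples for COX5A, COX6B1 and COX7B and 0 for COX4I1, COX6A1 and COX6C.

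The 61 members shared 80 regions within 2 kb, with a median of 164.5 counts over 9 libraries, and 64 of the regions were tested among 105652. In all 4 contrasts 0 member regions were called, beside 0% of all regions when TALE was set against untreated cells, 0.000947% for dCas9, 0.000947% between TALE and dCas9, and 0% for the silenced groups together. At an unadjusted p under 0.05 the member regions numbered 5, 5, 2 and 4 in these contrasts, beside 4.74%, 4.69%, 4.47% and 4.88% of all regions. The 4 regions with the most counts belong to ATP5J2, NDUFS5, ATP5B and NDUFA7. The ATP5J2 region, 688 bases upstream of the start at chr7:99064478-99067446, had 72.4 ± 6.68 CPM (SD, n = 3) untreated, 78.5 ± 10.6 with TALE and 79.9 ± 6.38 with dCas9. The others were at 60.0 ± 7.53, 64.9 ± 9.80 and 70.0 ± 13.4 for NDUFS5, 35.6 ± 1.96, 32.9 ± 5.81 and 35.6 ± 11.3 for ATP5B, and 30.7 ± 7.82, 29.0 ± 5.33 and 35.1 ± 5.55 for NDUFA7. For these 4 regions every adjusted p was 1.00 by edgeR in each contrast, with log2 fold changes of -0.11 to 0.12 for TALE and -0.01 to 0.20 for dCas9 against untreated.

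The smallest unadjusted p for TALE against untreated was at a region of NDUFA3, an accessory subunit of complex I, 1129 bases downstream of its start (chr19:54607292-54607761). It was chosen after its values were seen, as was the next. It had 49, 58 and 48 counts untreated, 23, 22 and 33 with TALE and 27, 42 and 25 with dCas9, with log2 fold changes of -0.93 (SE 0.270, adjusted p = 0.962) and -0.73 (SE 0.263, adjusted p = 1.00). A region of NDUFB2, 1940 bases downstream (chr7:140398448-140398829), had 12, 9 and 18 counts untreated, 17, 19 and 34 with TALE and 22, 38 and 26 with dCas9, and its value for dCas9 was 1.16 (SE 0.349, adjusted p = 0.908).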

How the data were processed

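RNA-seq and MeDIP-seq libraries of K562 cells were taken as the raw counts per gene and per region that the authors deposited. Per the submitters' processing notes, STAR 2.3.0 was used for RNA, BWA 0.7.5, Picard, MACS2 and bedtools for MeDIP, and build hg19. The counting program, its annotation, its use of strand and its rule for multi-mapping reads are not given in the sources used here. The authors' deposited peak lists, with their score, fold enrichment and −log10 p and q-values, were used only for peak positions. Tests on counts used edgeR 4.0.16 under R 4.3.3 (glmQLFit and glmQLFTest, TMM factors, filterByExpr with a minimum of 10, all 9 libraries in 1 model, Benjamini-Hochberg over all genes, threshold 0.05). CPM and RPKM were computed here, and permutation tests used log2(CPM + 0.5). Gene positions came from GENCODE on GRCh37, where 76 members were found under their symbol and 19 under a former one, and promoters from RefSeq GRCh38.p14. Alternatives were DESeq2 1.42.0, other filters and scalings, a replicate block and leaving out each library. The named members are those with an unadjusted p under 0.05 (at most 8 per contrast), the 2 highest and 2 lowest per complex, the paralogue pairs, complex II and the 4 with the most MeDIP counts. Members and lists were chosen with earlier results of these data known.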

Additional observations from a re-analysis of the deposited data

How the results depend on the processing

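The number of members called at an adjusted p under 0.05 stayed at 0 in all 4 RNA contrasts under every alternative tried except that 1 member, COX7B, was called for TALE against untreated without a filter on low counts (log2 fold change -0.56, adjusted p = 0.0415, with 0.0512 to 1.00 under its other alternatives). The number at an unadjusted p under 0.05 moved more. For TALE against untreated it went from 5 to 9 without a filter, 3 with upper-quartile factors, 3 with DESeq2, 2 with the replicate block, and 10 after removal of length and GC trends, with or without the block. For dCas9 against untreated it went from 1 to 2 without a filter, 3 with only the groups compared, 3 after removal of the trends and 4 with the block added. For TALE against dCas9 it went from 7 to 13, 3, 14 and 17 in the same order, and for both silenced groups from 3 to 5 without a filter, 1 with DESeq2 and 5 after removal of the trends, with or without the block. The removal of length and GC trends was added after seeing the data. It took out linear trends fitted over all tested genes of a library, on transcript length and GC content, not on coding length. Leaving out single libraries gave 1 to 36, 1 to 7, 1 to 33 and 1 to 16 members in the 4 contrasts (TALE against untreated, dCas9 against untreated, TALE against dCas9, both), 0 called, and medians of -0.24 to 0.02, -0.09 to 0.06, -0.24 to 0.03 and -0.12 to 0.01. The 36, 33 and 16 are those without TALE replicate 3, and the 7 for dCas9 against untreated, with the median of -0.09, is that without dCas9 replicate 1. All genes called were 3, 4, 0 and 5, but 74, 89, 77 and 79 without a filter, 9, 27, 0 and 36 with DESeq2, and 32 for both silenced groups after removal of the trends; without a filter all 13 mitochondrial-genome subunits were called for TALE in both contrasts and 1, higher, for dCas9 against untreated, and without dCas9 replicate 1, 6 were called against dCas9. The cause was not tested. For MeDIP, 0 member regions were called under any alternative. At an unadjusted p under 0.05 regions within 1 kb gave 0, 0, 1 and 0, and within 5 kb 10, 9 and 7 in the last 3 contrasts. DESeq2 gave 3 for TALE against untreated, no filter gave 7 for both silenced groups, and single libraries left out gave 2 to 7, 3 to 7, 1 to 4 and 3 to 6. All 16 pairs of a named member and a contrast kept their direction in 301 alternative fits. These pairs were chosen for a small p in the same libraries that the fits reuse. The kept direction is therefore no separate support for them. The replicate block called 3, 2, 0 and 4 genes and 0 members. Same-numbered libraries did not deviate together (correlations of -0.256 to 0.101 for RNA and -0.005 to 0.004 for MeDIP), so the numbers were not taken to pair them. The 9 untested members had too few counts for any statement on treatment.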
